A study of Mus musculus with 4 samples.

Results

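The genes of the major histocompatibility complex (MHC) and of antigen processing were followed in 4 RNA-seq libraries of mouse inguinal fat. The members were every gene symbol that starts with H2-, of which there were 44, and 12 genes added by name (Cd74, Ciita, B2m, Tap1, Tap2, Tapbp, Psmb8, Psmb9, Psmb10, Nlrc5, Erap1 and Cd1d1), giving 56 of the 26214 symbols in the files. By symbol, 33 members were class I genes or class I pseudogenes and 10 were class II genes. A further 11 were processing genes and regulators, the lipid-presenting Cd1d1 stood alone as class I-like, and H2-Ke6, a dehydrogenase gene that lies in the complex and encodes no MHC chain, was counted apart.

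The libraries came from the stromal vascular fraction of inguinal white fat, which is what remains of digested fat once the floating adipocytes are removed. A medicinal herb extract (MHE) had been given to the mice of 2 libraries and phosphate-buffered saline (PBS) to those of the other 2, and the labels call each a biological replicate. The protocols mention 3 libraries for each treatment, of which 2 are used here. Strain, genotype, sex, age, diet, dose, duration and the makeup of the extract are not given in the labels.

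Every nucleated cell can load peptides from its own cytosol onto class I molecules, each made of a heavy chain and the small subunit encoded by B2m. The proteasome cuts the peptides, the TAP transporter carries them into the endoplasmic reticulum, and tapasin helps to load them. Class II molecules pair an alpha with a beta chain, are normally made by B cells, dendritic cells and macrophages, and are escorted by the invariant chain Cd74 to endosomes. There the H2-DM dimer exchanges peptides and the H2-DO dimer, found mainly in B cells, restrains H2-DM. The transactivator Nlrc5 drives class I genes and Ciita drives class II genes, both through a promoter module of X and Y boxes bound by the RFX, CREB and NF-Y factors.

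The promoter stretches that hold this module are shown because both classes and both transactivators are compared below. The RefSeq promoter table (build GRCm38.p6, of which mm10 is the browser name) had an entry for 39 of the 56 members, each covering 250 bases before and 50 after a start site. The search was for TGANG, the core of the X2 box, followed after 14 to 26 bases by ATTGG, the Y box, on both strands. The letters and the gap were chosen after reading these promoters, so the counts that follow describe them and are no independent test. The pair was present in 6 of 8 class II genes, 6 of 23 class I genes and 1 of 7 processing genes and regulators, against 953 of 27025 genes (3.53%) in the whole table. Capitals mark TGANG and ATTGG, and each stretch is written 5′ to 3′ on the strand of its gene, class II genes first.
H2-Aa: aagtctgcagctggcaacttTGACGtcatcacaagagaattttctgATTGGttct
H2-Eb1: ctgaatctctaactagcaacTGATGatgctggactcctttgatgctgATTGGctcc
H2-Eb2: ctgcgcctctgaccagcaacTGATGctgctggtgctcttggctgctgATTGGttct
H2-Ob: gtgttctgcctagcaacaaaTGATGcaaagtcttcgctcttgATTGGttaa
H2-DMb1: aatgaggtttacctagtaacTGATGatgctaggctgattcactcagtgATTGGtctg
H2-DMb2: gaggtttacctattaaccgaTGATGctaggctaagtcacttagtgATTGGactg
H2-K1: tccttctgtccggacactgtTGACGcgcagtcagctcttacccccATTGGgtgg
H2-D1: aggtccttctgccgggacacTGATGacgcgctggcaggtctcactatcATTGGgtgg
H2-Q6: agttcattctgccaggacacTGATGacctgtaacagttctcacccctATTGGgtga
H2-Q7: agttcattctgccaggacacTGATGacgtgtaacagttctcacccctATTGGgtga
H2-M3: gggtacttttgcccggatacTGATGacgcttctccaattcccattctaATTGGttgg
B2m: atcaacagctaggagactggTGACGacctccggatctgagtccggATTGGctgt
These stretches lie at chr17:34287863-34287917, minus strand (H2-Aa), chr17:34305761-34305816, plus strand (H2-Eb1), chr17:34325528-34325583, plus strand (H2-Eb2), chr17:34238806-34238856, plus strand (H2-Ob), chr17:34153082-34153138, plus strand (H2-DMb1) and chr17:34145114-34145167, plus strand (H2-DMb2). The class I stretches lie at chr17:34000355-34000408, minus strand (H2-K1), chr17:35262970-35263026, plus strand (H2-D1), chr17:35424724-35424779, plus strand (H2-Q6), chr17:35439068-35439123, plus strand (H2-Q7) and chr17:37270165-37270221, plus strand (H2-M3), and that of B2m at chr2:122147589-122147642, plus strand. H2-Q4 also held the pair, at chr17:35379490-35379546, plus strand, and is not printed. H2-Oa and H2-DMa had promoter entries with ATTGG and without the pair, and ATTGG alone was in 41.1% of all promoters.

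Some class I promoters held further letters that no class II promoter in the table held. TTTCACTTC, the core of an interferon-stimulated response element, was present on either strand in 7 of 23 class I genes (H2-D1, H2-K1, H2-M3, H2-Q10, H2-Q4, H2-Q6 and H2-Q7) and 0 of 8 class II genes, against 161 genes (0.596%) in the whole table. GGGATTCCC, the core of a kappa B element, was in 4 class I genes (H2-K1, H2-D1, H2-Q6 and H2-Q7) and 0 class II genes, against 112 genes (0.414%). Class I genes are copies of one another, so their shared letters are not separate observations, and these letters too were read from the promoters. The 250 bases before the start site of H2-Q7 (chr17:35438905-35439154, plus strand) and of the class II gene H2-Ob (chr17:34238655-34238904, plus strand) show both layouts, with the motifs found on the printed strand in capitals.
H2-Q7: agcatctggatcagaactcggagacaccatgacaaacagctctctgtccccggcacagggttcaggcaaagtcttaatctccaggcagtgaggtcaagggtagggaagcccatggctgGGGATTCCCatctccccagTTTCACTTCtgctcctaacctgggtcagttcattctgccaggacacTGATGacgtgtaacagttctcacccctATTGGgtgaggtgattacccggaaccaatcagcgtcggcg
H2-Ob: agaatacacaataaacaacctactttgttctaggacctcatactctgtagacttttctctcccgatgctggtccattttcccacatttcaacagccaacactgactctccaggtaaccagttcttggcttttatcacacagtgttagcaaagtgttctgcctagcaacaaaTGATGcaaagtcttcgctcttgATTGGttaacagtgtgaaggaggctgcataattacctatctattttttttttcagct

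The values are read counts per gene symbol, given as CPM (counts scaled to a common library total) with TMM factors, with library totals of 27161882 to 33391075 counts. Of the 56 members, 44 passed the filter on low counts and were tested with edgeR's quasi-likelihood test over 16196 genes. The other 12, which were 11 class I members and H2-Ea, reached at most 13 counts in any library. H2-M10.2 to H2-M10.6, from a class I family known from the vomeronasal organ, were the 5 members at 0 in all 4 libraries, where a count of 0 allows up to 3 counts, or 0.0903 to 0.108 CPM. H2-Ea, the class II alpha chain gene that the RefSeq table of this C57BL/6J assembly lists as a transcribed pseudogene, had 4 and 5 counts in MHE libraries, against 4 and 4 counts in PBS libraries. Over all genes, 643 rose (3.97%) and 156 fell (0.963%) with MHE, 4.93% in all, at a threshold of 0.05 on the Benjamini-Hochberg adjusted p. Among members 14 of 44 rose, 9 of class I and 5 of processing and regulation, and none fell. Both MHE libraries lay above both PBS libraries in 30 of the 44 tested members and below them in 2 (B2m and Cd1d1), against 33.1% and 28.9% of all genes tested. An unadjusted p under 0.05 was found in 16.7% of all genes tested with a higher and in 11.8% with a lower level in MHE. No gene passed without MHE replicate 1 or without MHE replicate 2 (2352 and 2596 genes at an unadjusted p under 0.05), so every call below was lost there. Without a PBS library the spread comes from the MHE libraries alone, so a call kept or gained in such a fit is no separate support. Across the 4 fits with a library left out, the log2 fold changes of the 14 called members lay between 1.19 and 3.27. These were within 1.5-fold of the values given. Below, a value written with ± is a log2 fold change, MHE over PBS, with its SE, and a value given without a library is the log2 fold change of that fit.

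**Figure D1:**
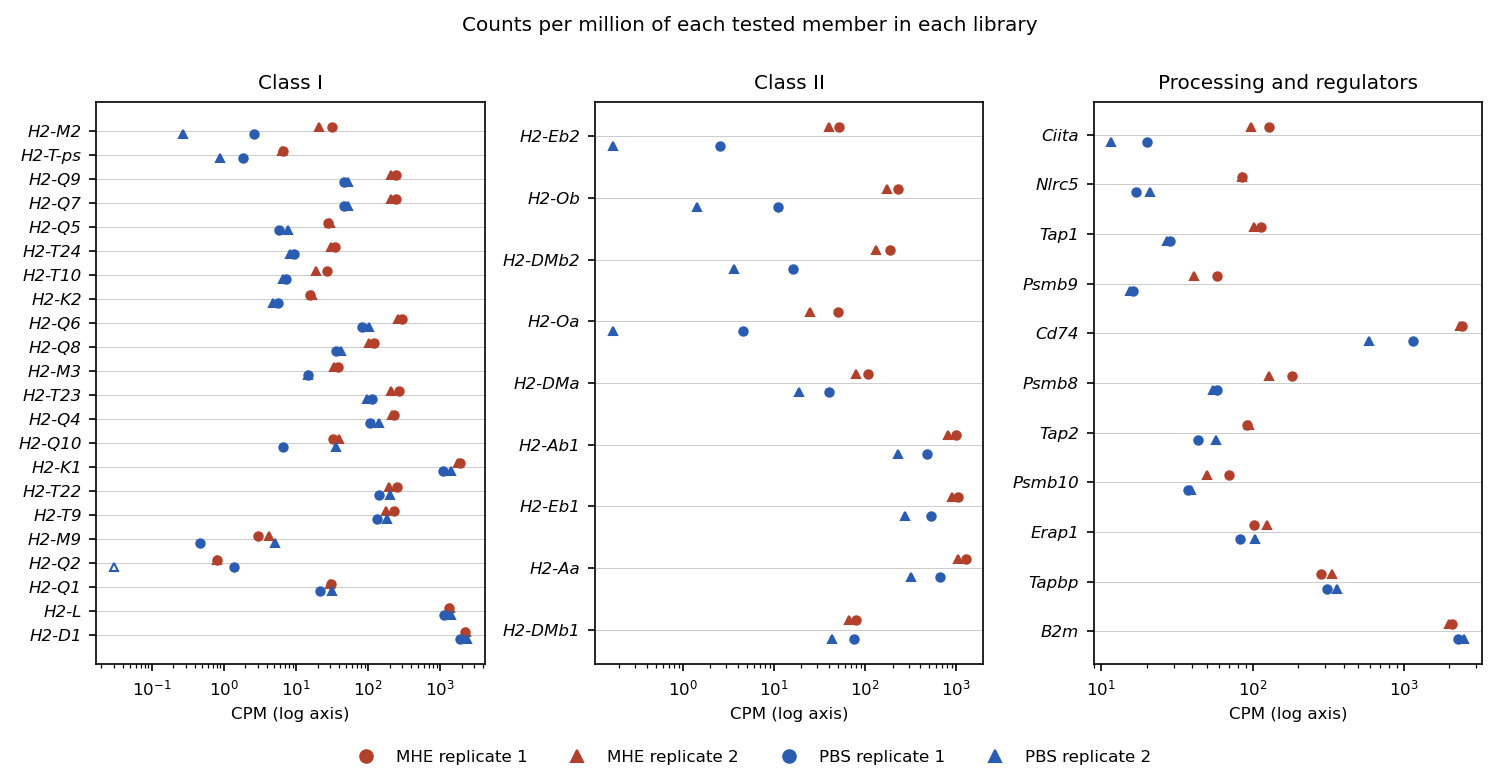
CPM (log axis) of the 22 class I members, 9 class II members and 11 processing genes and regulators that were tested, 1 point per library, ordered from the highest fitted log2 fold change at the top. MHE libraries are red and drawn above the blue PBS libraries of the same gene, and the open triangle marks H2-Q2 at 0 counts in PBS replicate 2. The class II points of PBS libraries lie far apart, with H2-Oa at 4.55 and 0.169 CPM.

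Cell type markers differed between the libraries too. The 9 B cell markers summed to 1970.1 and 1574 CPM in MHE libraries, against 107 and 9.33 CPM in PBS libraries, and the 8 T cell markers to 837 and 630.1 CPM in MHE libraries, against 33.2 and 11.7 CPM in PBS libraries. Each of these markers was higher in PBS replicate 1 than in PBS replicate 2, and no marker of either list was at 0 in any library. The 8 dendritic cell markers summed to 315 and 259 CPM in MHE libraries, against 145 and 59.0 CPM in PBS libraries. Without Ccr7 the sums were 161 and 124 CPM in MHE libraries, against 138 and 58.0 CPM in PBS libraries, which overlapped. Itgax, with a negative log2 fold change, had 17.5 and 28.2 CPM in MHE libraries, against 105 and 19.4 CPM in PBS libraries. The log2 fold change was positive for 7 of the 8 markers. Both MHE libraries lay above both PBS libraries in 6 of the 8, against 33.1% of all genes tested. Called higher were 4 of the 8 (Flt3, Xcr1, Ccr7 and Siglech), where the share of all tested genes was 3.97%. The 5 markers of lymph node stroma and venules summed to 813 and 478 CPM in MHE libraries, against 143 and 14.5 CPM in PBS libraries, with Glycam1 at 0 in PBS replicate 2 and Madcam1 at 0 in PBS replicate 1. The 7 macrophage markers summed to 1644 and 2048 CPM in MHE libraries, against 2929 and 1201 CPM in PBS libraries, and their groups overlapped. Markers of progenitors (5 genes, 975 and 1442 CPM in MHE libraries, against 1990.2 and 1454 CPM in PBS libraries) and endothelium (3 genes, 616 and 623 CPM in MHE libraries, against 619 and 1149 CPM in PBS libraries) were present in every library, and so were those of adipocytes (5 genes, 18497 and 10215 CPM in MHE libraries, against 22119.8 and 30411 CPM in PBS libraries), although adipocytes are normally removed from this fraction. Single genes weighed heavily in some of these sums. Ccl21a of lymph node stroma had 630 and 375 CPM in MHE libraries, against 124 and 1.22 CPM in PBS libraries, and was not called. Lyz2 of macrophages had 1226 and 1316 CPM with MHE, against 1976 and 689 CPM with PBS. Fabp4 of adipocytes had 13113.5 and 6063 CPM with MHE, against 11780 and 15569.5 CPM with PBS, which overlapped. In such bulk samples fewer cells of a type and less RNA per cell cannot be told apart, and the part of these cell types in the results below was not tested.

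Classical class I genes, which present peptides to CD8 T cells, did not pass the test. H2-K1 had 1862 and 1797 CPM in MHE libraries, against 1112 and 1399.6 CPM in PBS libraries, and H2-D1 had 2192 and 2262 CPM in MHE libraries, against 1890.3 and 2370.1 CPM in PBS libraries. All 4 H2-K1 values were separated by group and those of H2-D1 overlapped. The log2 fold changes of 0.54 ± 0.34 (SE) and 0.06 ± 0.36 had adjusted p of 0.344 and 0.919 by edgeR. B2m, the shared light chain, had 2094 and 1992 CPM in MHE libraries, against 2289 and 2511 CPM in PBS libraries, lower in both MHE libraries, with a log2 fold change of -0.23 ± 0.35 (adjusted p = 0.688). The counts of H2-K1 relative to H2-D1 were 0.849 and 0.794 in MHE libraries and 0.588 and 0.591 in PBS libraries, with no overlap between groups.

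Several class I symbols had counts that moved as one, so their reads could not be separated. H2-Q9 had 8115 and 5987 counts in MHE libraries, against 1293 and 1573 counts in PBS libraries, and H2-Q7 had 8117 and 5989 counts in MHE libraries, against 1293 and 1575 counts in PBS libraries. These values differed by at most 2 counts in any library. Likewise H2-L counts were 0.612 and 0.610 times those of H2-D1 in MHE libraries and 0.604 and 0.603 times in PBS libraries, and H2-T9 counts were 0.916 and 0.913 times those of H2-T22 in MHE libraries and 0.925 and 0.930 times in PBS libraries. H2-L had 1342 and 1380.2 CPM in MHE libraries, against 1141 and 1428 CPM in PBS libraries, a log2 fold change of 0.08 ± 0.33. The GENCODE M21 annotation of GRCm38 held no gene named H2-L, H2-Q8, H2-Q9 or H2-T9. How reads that match several genes were counted is unknown from the labels, so the values of single class I genes, and of the Q region above all, are uncertain.

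Of 9 tested members of the Q region, which holds non-classical class I genes, 5 rose: H2-Q7, H2-Q9, H2-Q5, H2-Q6 and H2-Q8. With H2-Q7 and H2-Q9 counted once, 4 of 8 rose. H2-Q6 and H2-Q8 were counted apart here, and whether they share reads was not tested. The share of all tested genes called higher was 3.97%. In the mouse H2-Q7 and H2-Q9 encode Qa-2, a surface molecule held by a lipid anchor. H2-Q7 had 244 and 210.2 CPM in MHE libraries, against 46.7 and 53.2 CPM in PBS libraries, a log2 fold change of 2.19 ± 0.23 (adjusted p = 0.0219), and H2-Q9 had 244 and 210.2 CPM with MHE, against 46.7 and 53.2 CPM with PBS (2.19 ± 0.23, adjusted p = 0.0219). Every MHE value was more than 3 times every PBS value in this pair, which shared its reads. H2-Q6 had 298 and 261 CPM in MHE libraries, against 82.6 and 104 CPM in PBS libraries, and H2-Q8 had 123 and 103 CPM with MHE, against 35.8 and 42.5 CPM with PBS. H2-Q5, which RefSeq lists as a transcribed pseudogene, had 28.2 and 29.6 CPM with MHE, against 5.88 and 7.74 CPM with PBS. None of the 3 overlapped between groups, and their log2 fold changes were 1.58 ± 0.25, 1.53 ± 0.22 and 2.08 ± 0.24, with edgeR adjusted p of 0.0426, 0.0364 and 0.0248. Relative to H2-D1, H2-Q7 counts were 0.111 and 0.0929 in MHE libraries and 0.0247 and 0.0225 in PBS libraries. The summed Q region, with H2-Q7 and H2-Q9 both counted, stood at 1233 and 1102 CPM in MHE libraries, against 352 and 471 CPM in PBS libraries.

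The promoter of H2-Q7 shown above holds the response element, kappa B and X2-Y letters. So do those of H2-Q6, which was called, and of H2-K1 and H2-D1, which did not pass the test. The other Q region members were not called. H2-Q4 had 0.86 ± 0.26 (adjusted p = 0.118), H2-Q1 had a log2 fold change of 0.19, and H2-Q2 had 27 and 23 counts in MHE libraries, against 38 and 0 counts in PBS libraries. H2-Q10, a secreted class I molecule known from liver, had 32.5 and 39.7 CPM in MHE libraries, against 6.64 and 35.8 CPM in PBS libraries. PBS replicate 2 lay among the MHE values and PBS replicate 1 below them all, so that H2-Q10 passed without PBS replicate 2 (log2 fold change 2.45) and had -0.00 without PBS replicate 1, against 0.77 with all libraries.

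In the T region 2 of 6 tested members rose and in the M region 1 of 3, where 3.97% of all tested genes were called higher. H2-K2 rose as well. H2-T24 had 34.6 and 31.0 CPM in MHE libraries, against 9.53 and 8.35 CPM in PBS libraries, and H2-T10 had 26.6 and 19.3 CPM with MHE, against 7.36 and 6.62 CPM with PBS. Their log2 fold changes were 1.88 ± 0.21 and 1.71 ± 0.26 (edgeR adjusted p = 0.0248 and 0.0399), and neither overlapped. H2-T10 is known with its close copy H2-T22 as a ligand of some gamma delta T cells, and H2-T22 had 252 and 197 CPM with MHE, against 142 and 200.2 CPM with PBS, overlapping, with 0.39 ± 0.29 (adjusted p = 0.416). H2-M3, which presents formylated bacterial peptides, had 38.2 and 33.8 CPM in MHE libraries, against 14.8 and 14.5 CPM in PBS libraries, a log2 fold change of 1.30 ± 0.20 (adjusted p = 0.0387). H2-K2, a transcribed pseudogene beside H2-K1, had 15.7 and 16.6 CPM with MHE, against 5.59 and 4.87 CPM with PBS and 1.63 ± 0.24 (adjusted p = 0.0381). These 4 called genes were 2.46 (H2-M3) to 3.67 (H2-T24) times as high with MHE by mean CPM.

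The largest class I values did not pass. H2-M2 had 1062 and 600 counts in MHE libraries, against 72 and 8 counts in PBS libraries, with 4.21 ± 0.98 (adjusted p = 0.0758), and H2-T-ps had 6.59 and 6.46 CPM in MHE libraries, against 1.84 and 0.879 CPM in PBS libraries, with 2.26 ± 0.49 (adjusted p = 0.0668). Both genes were higher in each MHE library than in either PBS library, and the PBS libraries differed 9.61-fold for H2-M2 and 2.10-fold for H2-T-ps. Without PBS replicate 1 both passed, at 6.58 and 2.87, and without PBS replicate 2 they passed at 3.36 and 1.83. H2-T23, which encodes Qa-1, a ligand of inhibitory receptors on NK cells, had 267 and 207 CPM with MHE, against 114 and 96.5 CPM with PBS and 1.17 ± 0.26 (adjusted p = 0.0683), and it passed without PBS replicate 1 (1.28, adjusted p = 0.0419). H2-M9 had 98 and 121 counts in MHE libraries, against 13 and 152 counts in PBS libraries, and it passed without PBS replicate 2 (2.93) while without PBS replicate 1 its value was -0.53, against 0.36. H2-Q2 passed without PBS replicate 1, when its PBS group was at 0 counts and no fold is given.

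**Figure D2:**
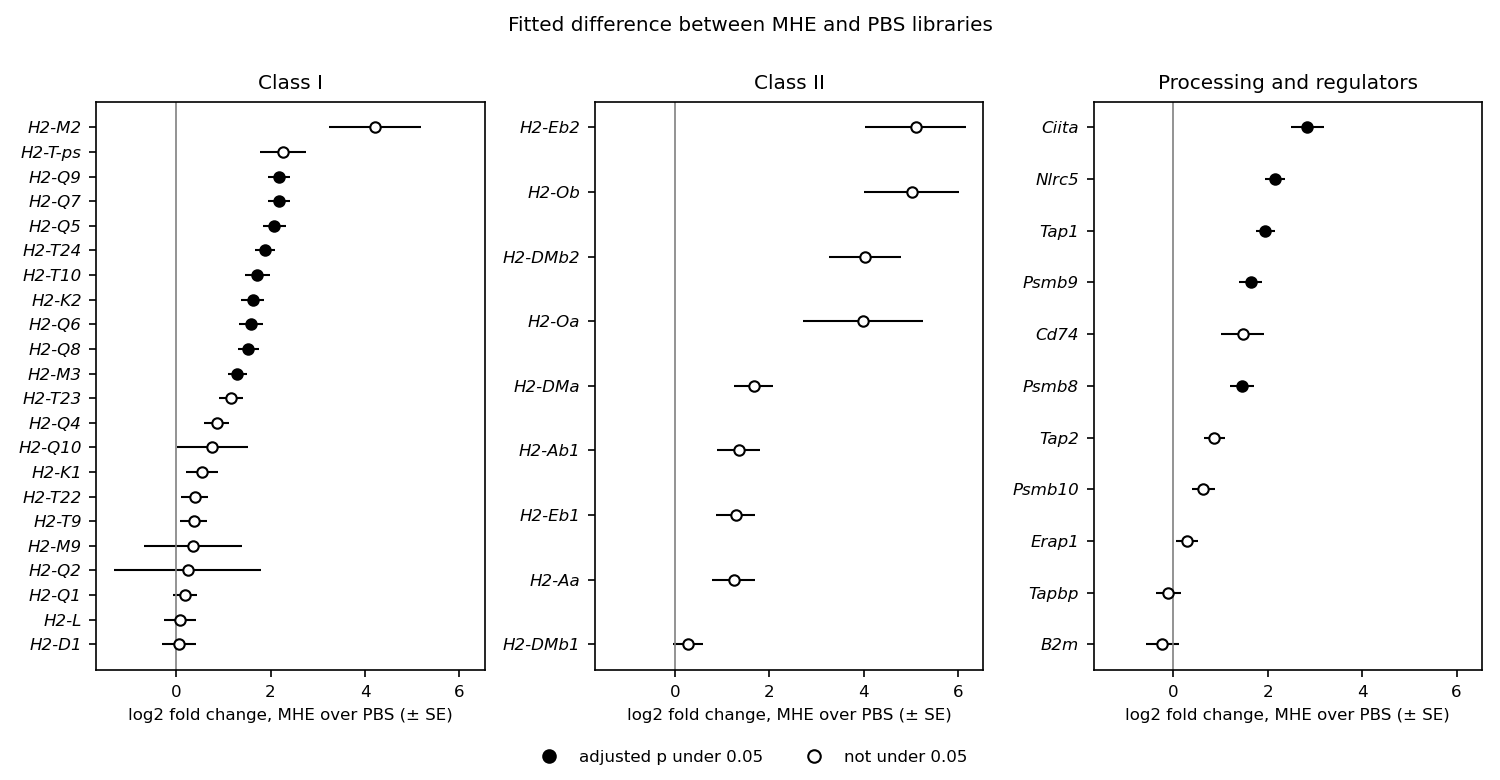
Fitted log2 fold change, MHE over PBS, with its SE, for each tested member, with filled points where the edgeR adjusted p was under 0.05. The 9 filled class I points lie between 1.30 and 2.19, while the class II points reach 5.10 with SE of up to 1.28 and none is filled.

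Both MHE libraries lay above both PBS libraries in 8 of 9 tested class II members, and 0 of 9 were called by edgeR, with 8 higher at an unadjusted p under 0.05, against 16.7% of all genes. Of the peptide-binding chain genes, H2-Aa had 1273 and 1051 CPM in MHE libraries, against 660.0 and 318 CPM in PBS libraries, H2-Ab1 had 1004 and 823 CPM with MHE, against 484 and 231 CPM with PBS, and H2-Eb1 had 1047 and 909 CPM with MHE, against 528 and 273 CPM with PBS. For each, the groups were separate, and PBS replicate 1 was 1.93 (H2-Eb1) to 2.10 (H2-Ab1) times as high as PBS replicate 2, a wider gap than that between the lower MHE library and PBS replicate 1. Their log2 fold changes were 1.25 ± 0.45, 1.35 ± 0.45 and 1.29 ± 0.42, with edgeR adjusted p of 0.156, 0.136 and 0.133. Without PBS replicate 1 all 3 passed, at 1.85, 1.97 and 1.83. The invariant chain gene Cd74 followed them, with 2431 and 2353 CPM in MHE libraries, against 1141 and 587 CPM in PBS libraries, a log2 fold change of 1.47 ± 0.45 and an adjusted p of 0.121, and it passed without PBS replicate 1 (2.01). Counts of Cd74 relative to H2-Ab1 stayed at 2.42 and 2.86 in MHE libraries and 2.36 and 2.55 in PBS libraries, and those of H2-Aa to H2-Ab1 at 1.27 and 1.28 with MHE and 1.36 and 1.38 with PBS.

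Another set of class II genes had few counts in PBS libraries. H2-Eb2, a beta chain gene next to H2-Eb1, had 1723 and 1143 counts in MHE libraries, against 70 and 5 counts in PBS libraries, and H2-Ob, the beta chain of H2-DO, had 7589 and 5019 counts in MHE libraries, against 307 and 42 counts in PBS libraries. Both MHE libraries were more than 10 times PBS replicate 1, which in turn was more than 7 times PBS replicate 2 for both genes. Their log2 fold changes were 5.10 ± 1.06 and 5.02 ± 1.01, with adjusted p of 0.0633 and 0.0592 by edgeR. H2-Oa, the alpha chain that pairs with H2-Ob, had 1655 and 699 counts in MHE libraries, against 126 and 5 counts in PBS libraries (3.98 ± 1.28, adjusted p = 0.130). H2-DMb2, from the H2-DM beta locus, had 6303 and 3780 counts in MHE libraries, against 448 and 108 counts in PBS libraries (4.02 ± 0.77, adjusted p = 0.0546). All 4 passed without PBS replicate 1, at 8.04, 7.14, 7.73 and 5.45, and without PBS replicate 2, at 4.19, 4.20, 3.04 and 3.33. Without MHE replicate 1, H2-Oa had 3.40. H2-Eb2, H2-Oa and, in class I, H2-M2 and H2-Q2 had fewer than 10 counts in PBS replicate 2 and were kept in the test by their other libraries.

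The H2-DM genes differed among themselves. H2-DMb1, a near copy of H2-DMb2 that lies next to it, had 78.6 and 66.0 CPM in MHE libraries, against 74.9 and 43.7 CPM in PBS libraries, which overlapped between groups (0.29 ± 0.31, adjusted p = 0.577). Counts of H2-DMb2 relative to H2-DMb1 were 2.41 and 2.01 in MHE libraries and 0.216 and 0.0836 in PBS libraries. The alpha chain gene H2-DMa had 107 and 79.2 CPM in MHE libraries, against 39.7 and 18.7 CPM in PBS libraries, with 1.67 ± 0.42 (adjusted p = 0.0846). It passed when either PBS library was left out, at 2.30 without PBS replicate 1 and 1.24 without PBS replicate 2.

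Within the class II set, genes thus differed in how much of their transcript was found in PBS libraries. Counts of H2-Eb2 relative to H2-Eb1 were 0.0495 and 0.0441 in MHE libraries and 0.00478 and 0.000619 in PBS libraries, and those of H2-Ob relative to H2-Ab1 were 0.228 and 0.214 with MHE and 0.0229 and 0.00615 with PBS. The B cell receptor component gene Cd79a had 377 and 303 CPM in MHE libraries, against 21.8 and 0.912 CPM in PBS libraries. Counts of H2-Ob relative to Cd79a were 0.606 and 0.581 in MHE libraries and 0.509 and 1.56 in PBS libraries, where the last value rests on 42 counts of H2-Ob and 27 of Cd79a. All 7 macrophage markers were higher in PBS replicate 1 than in PBS replicate 2, from 1.08 times (Mrc1) to 3.21 times (Cd68). All 9 tested class II members were too. Lyz2 had 1226 and 1316 CPM with MHE, against 1976 and 689 CPM with PBS, and Cd68 had 71.8 and 125 CPM with MHE, against 308 and 95.8 CPM with PBS. Between the MHE libraries, 0 of 7 macrophage markers and 9 of 9 tested class II members were higher in replicate 1. Whether B cells or macrophages set the class II values was not tested.

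**Figure D3:**
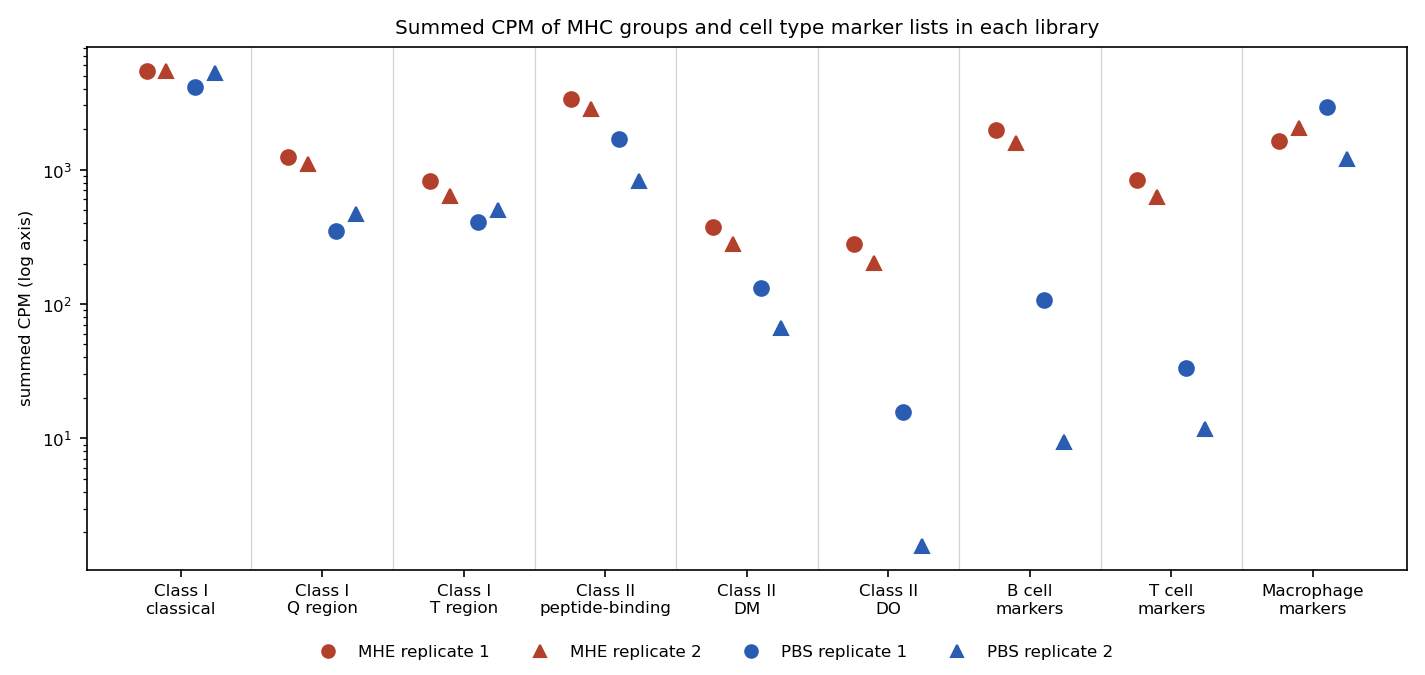
Summed CPM (log axis) of class I and class II groups and of 3 marker lists, 1 point per library, with the red MHE libraries left of the blue PBS libraries in each column. The 2 DO genes and the 9 B cell markers have PBS libraries that lie far apart, at 15.6 and 1.59 and 107 and 9.33 CPM, while classical class I lies at 5396 and 5439 CPM with MHE and 4144 and 5198 CPM with PBS. The class I sums include H2-L, H2-Q9 and H2-T9, whose counts tracked other members.

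Regulators of both classes rose. Ciita, the class II transactivator (chromosome 16, 10480014 to 10531064), had 128 and 98.047 CPM in MHE libraries, against 20.0 and 11.6 CPM in PBS libraries, a log2 fold change of 2.84 ± 0.35 (adjusted p = 0.0258), the highest of the 11 processing genes and regulators. Nlrc5, the class I transactivator (chromosome 8, 94434335 to 94527272), had 84.6 and 84.8 CPM in MHE libraries, against 16.965 and 21.1 CPM in PBS libraries, a log2 fold change of 2.15 ± 0.21 (adjusted p = 0.0212). For both genes the lowest MHE value was more than 4 times the highest PBS value. Ciita was 1.72 times as high in PBS replicate 1 as in PBS replicate 2, and Nlrc5 0.803 times. Counts of Ciita relative to Nlrc5 were 1.52 and 1.16 in MHE libraries and 1.18 and 0.550 in PBS libraries, and these ranges overlapped. No promoter of either gene is printed.

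Of the peptide supply genes of class I, the TAP transporter and the immunoproteasome rose in part. Tap1 and Psmb9 lie head to head on chromosome 17 (34187556 to 34197225 and 34182030 to 34187330), with 225 bases between them. Tap1, a TAP subunit gene, had 113 and 102 CPM in MHE libraries, against 28.4 and 27.3 CPM in PBS libraries, and Psmb9 had 57.9 and 40.9 CPM with MHE, against 16.3 and 15.4 CPM with PBS. Psmb8, next to Tap1, had 181 and 127 CPM in MHE libraries, against 58.0 and 54.5 CPM in PBS libraries. All 3 were separated by group, with log2 fold changes of 1.95 ± 0.20, 1.64 ± 0.25 and 1.46 ± 0.26 and edgeR adjusted p of 0.0217, 0.0381 and 0.0483. PBS replicate 1 was 1.04 (Tap1), 1.06 (Psmb9) and 1.06 (Psmb8) times as high as PBS replicate 2. Psmb10, the remaining inducible proteasome subunit, had 70.0 and 49.9 CPM with MHE, against 37.6 and 39.4 CPM with PBS (0.64 ± 0.24, adjusted p = 0.160). Tap2, the other TAP subunit, had 91.2 and 94.0 CPM with MHE, against 43.9 and 57.5 CPM with PBS (0.87 ± 0.22, adjusted p = 0.0883) and passed without PBS replicate 2 (1.09, adjusted p = 0.0424). Counts of Tap1 relative to Tap2 were 1.24 and 1.09 in MHE libraries and 0.647 and 0.475 in PBS libraries.

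The inducible subunits were set beside the constitutive ones that they replace. Psmb5, which Psmb8 replaces in the immunoproteasome, had 94.1 and 56.5 CPM in MHE libraries, against 96.8 and 89.6 CPM in PBS libraries, with a log2 fold change of -0.31 ± 0.30 (adjusted p = 0.531). Psmb6 and Psmb7 had -0.34 ± 0.31 and -0.37 ± 0.31, and none of the 3 was called. Counts of Psmb8 relative to Psmb5 were 1.93 and 2.26 in MHE libraries and 0.599 and 0.609 in PBS libraries, those of Psmb9 to Psmb6 were 0.656 and 0.750 with MHE and 0.159 and 0.197 with PBS, and those of Psmb10 to Psmb7 were 0.633 and 0.771 with MHE and 0.330 and 0.348 with PBS. In all 3 pairs both MHE ratios were above both PBS ratios. These ratios were chosen after their values were seen, and the share of all gene pairs separated in this way was not computed. Of single genes tested, 33.1% had both MHE libraries above both PBS libraries in CPM. The proteasome activator genes Psme1 and Psme2 had 0.78 ± 0.26 and 0.44 ± 0.29, and neither was called. Thus 0 of the 5 genes of this list passed by edgeR. An unadjusted p under 0.05 with a higher level was found for 1 of the 5 (Psme1), against 16.7% of all genes tested.

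Most genes of the later steps of class I loading did not pass. Tapbp, which encodes tapasin, had 285 and 335 CPM in MHE libraries, against 309 and 359 CPM in PBS libraries, overlapping, with a log2 fold change of -0.11 ± 0.27 (adjusted p = 0.810). Erap1, the peptidase that trims peptides in the endoplasmic reticulum, had 0.28 ± 0.23 (adjusted p = 0.463). Of 6 other loading and chaperone genes, Tapbpl, a relative of tapasin, rose (51.4 and 43.2 CPM with MHE, against 21.9 and 22.1 CPM with PBS, 1.10 ± 0.20, adjusted p = 0.0487). No other gene of the 6 was called, where 3.97% of all tested genes were called higher. Both MHE libraries lay above both PBS libraries in 1 of the 6, against 33.1% of all genes tested. The peptidase gene Lnpep and the chaperone gene Hspa5 had log2 fold changes of 0.48 and 0.19, and the disulfide isomerase gene Pdia3 0.05, without a call.

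Of the class I-like genes outside the main families, Hfe fell and no other was called. Cd1d1, which presents lipids to natural killer T cells, had 184 and 155 CPM in MHE libraries, against 278 and 327 CPM in PBS libraries, lower in both MHE libraries, with -0.84 ± 0.26 (adjusted p = 0.121). It was the only tested member with an unadjusted p under 0.05 and a negative log2 fold change. Of 6 tested class I-like genes outside the H2- symbols, Hfe, an iron regulator that binds the B2m light chain, fell: it had 63.6 and 54.3 CPM in MHE libraries, against 145 and 206 CPM in PBS libraries (-1.58 ± 0.27, adjusted p = 0.0454). Hfe was the 1 call among the 6, beside 0.963% of all tested genes called lower. Cd1d2, a copy of Cd1d1 with which it can share reads, had -1.01 ± 0.25 (adjusted p = 0.0854), Mr1, which presents microbial vitamin metabolites, had -0.55 ± 0.19 (adjusted p = 0.151), and Fcgrt, the neonatal Fc receptor, had -0.40 ± 0.29 (adjusted p = 0.408). H2-Ke6 had 52.5 and 34.9 CPM in MHE libraries, against 32.8 and 35.3 CPM in PBS libraries (0.36 ± 0.26, adjusted p = 0.399). Adipocyte markers summed lower in the MHE libraries as well, by the values given above, and their part in these values was not tested.

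Factors of the shared promoter module and of interferon-gamma signalling rose in part. Of 7 tested enhanceosome genes, Rfx5, an RFX subunit that binds the X box, rose, with 37.4 and 34.1 CPM in MHE libraries, against 14.1 and 13.7 CPM in PBS libraries (1.36 ± 0.19, adjusted p = 0.0357). It was the only call among the 7, where 3.97% of all tested genes were called higher. Nfya, Creb1 and Rfxank had log2 fold changes of 0.97, 0.98 and 0.45, with adjusted p of 0.0584, 0.0672 and 0.257. Of the interferon-gamma axis, Irf1, a transcription factor that binds response elements in class I promoters, rose, with 140.0 and 147 CPM in MHE libraries, against 51.1 and 61.7 CPM in PBS libraries. Irf8, a related factor, also rose, with levels of 227 and 183 CPM with MHE, against 48.1 and 24.1 CPM with PBS. Their log2 fold changes were 1.35 ± 0.22 and 2.51 ± 0.40 (edgeR adjusted p = 0.0424 and 0.0426), and Irf2 had 0.93 ± 0.19 at an adjusted p of 0.0593. Ifng itself was too low to be tested, with 7 and 23 counts in MHE libraries, against 3 and 8 counts in PBS libraries.

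Genes of the class II endosome had no call. Of 6, 0 passed by edgeR, 2 had an unadjusted p under 0.05, and both of these were lower with MHE, against 11.8% of all genes. Ctsl, a protease of invariant chain breakdown, had 368 and 489 CPM in MHE libraries, against 1292 and 1081 CPM in PBS libraries (-1.47 ± 0.33, adjusted p = 0.0720), and the protease gene Ctsd had -1.39 ± 0.40 (adjusted p = 0.108). Ctsb had -1.06 ± 0.42. Ifi30, a thiol reductase that unfolds antigens, had 140.2 and 142 CPM with MHE, against 99.6 and 32.4 CPM with PBS, higher in both MHE libraries (1.09 ± 0.54, adjusted p = 0.249). Of the ubiquitin ligases that remove class II molecules from the surface, Marchf1 had 79.4 and 80.3 CPM in MHE libraries, against 28.8 and 10.004 CPM in PBS libraries (2.04 ± 0.52, adjusted p = 0.0873) and Marchf8 -0.44 ± 0.22 (adjusted p = 0.255). Of 6 co-receptors and costimulators, 4 rose, where 3.97% of all tested genes were called higher. Cd8a, which binds class I, had 161 and 107 CPM in MHE libraries, against 2.96 and 1.89 CPM in PBS libraries (5.78 ± 0.39). Its partner Cd8b1 had 5.99 ± 0.41. Cd4, which binds class II, had 135 and 127 CPM in MHE libraries, against 5.99 and 1.28 CPM in PBS libraries (5.17 ± 0.77), and Cd86 had 2.33 ± 0.29. The edgeR adjusted p were 0.0192, 0.0192, 0.0385 and 0.0259 in that order. Cd8a, Cd8b1 and Cd4 are also on the T cell marker list, so their calls are no separate result.

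Set side by side, class I had 9 calls among 22 tested members (40.9%) and class II 0 of 9, where 3.97% of all tested genes were called higher. The median log2 fold change was 1.23 for class I and 1.67 for class II, beside -0.02 over all genes tested. At an unadjusted p under 0.05 the counts were 13 of 22 and 8 of 9, all higher, against 16.7% of all genes. With DESeq2, class I had 13 calls and class II 7, all higher, where 10.6% of all genes were called higher. With limma-voom the calls were 11 and 3, against 5.5% of all genes. Without PBS replicate 1 they were 13 and 8, against 10.5%, and without PBS replicate 2 they were 13 and 5, against 7.45%. Leaving out H2-L, H2-Q9 and H2-T9, whose counts tracked other members, class I had 8 calls among 19. Both MHE libraries lay above both PBS libraries in 14 class I and 8 class II members, against 33.1% of all genes tested. Whether the classes differed in response was not tested, since a score over chosen members carries no p.

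The balance of the classes within a library also differed between the groups. Summed class II CPM was 4029 and 3302 CPM in MHE libraries, against 1822 and 889.5 CPM in PBS libraries, and summed class I CPM was 7536 and 7259 CPM in MHE libraries, against 4925 and 6193 CPM in PBS libraries. The summed ratio of class II to class I was 0.535 and 0.455 in MHE libraries and 0.370 and 0.144 in PBS libraries. On the log2 scale the group means differed by 1.10, with a pooled SD between replicates of 0.69. With 2 libraries a group, 0.333 is the smallest two-sided p that exact permutation allows, so no test was made. Without PBS replicate 2 the difference was 0.42 and without PBS replicate 1 it was 1.78. These class I sums include H2-L, H2-Q9 and H2-T9, whose counts tracked other members, so shared reads may be counted more than once. Without those symbols, summed class I CPM was 5719 and 5488 in MHE libraries, against 3607 and 4525 in PBS libraries. The ratio of class II to class I was then 0.705 and 0.602 in MHE libraries and 0.505 and 0.197 in PBS libraries. Per kilobase of the longest coding transcript in GENCODE M21, H2-K1 and H2-D1 had mean levels of 1129.9 and 1059.6 CPM with MHE, beside 1030.0, 754 and 586 for H2-Aa, H2-Ab1 and H2-Eb1. With PBS the same levels per kilobase were 776 and 1013 for H2-K1 and H2-D1, beside 433, 295 and 240.1.

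The PBS libraries differed from each other by class. All 9 tested class II members were higher in PBS replicate 1 than in PBS replicate 2, with a median ratio of 2.12 and a range from 1.72 (H2-DMb1) to 26.9 (H2-Oa). Of 22 tested class I members 8 were higher in PBS replicate 1, and H2-K1 and H2-D1 were 0.795 and 0.798 times as high there. The 9 B cell markers had a median ratio of 21.2 between the same libraries and the 7 macrophage markers 2.76. Between the MHE libraries no tested member differed by more than 2.03-fold, the value of H2-Oa.

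**Figure D4:**
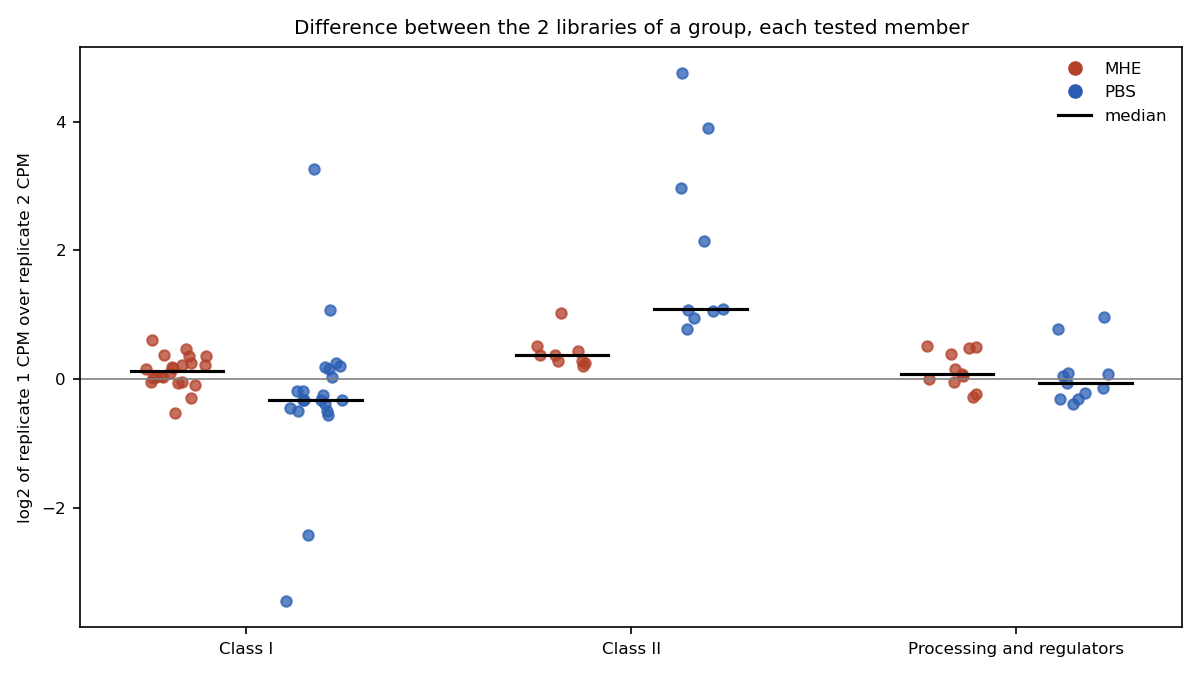
Log2 of CPM in replicate 1 over CPM in replicate 2 of the same group for each tested member, MHE in red left of PBS in blue, with the median as a bar. In PBS the 9 class II points all lie above 0, with a median ratio of 2.12, while the 21 class I points lie on both sides of 0 (H2-Q2, at 0 counts in PBS replicate 2, is left out).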

How the data were processed

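Each library's file, as deposited by the authors, holds raw read counts (whole numbers) for every gene symbol. The tools edgeR, limma and TopHat2 and the build mm10 are listed, without versions or roles, per the submitters' processing notes. The counting program, the annotation, the use of strand and the handling of multiply matching reads are nowhere stated in these sources: reads of near-identical, overlapping or antisense genes cannot be separated.

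All genes were fitted with edgeR 4.0.16 (R 4.3.3), using filterByExpr (minimum count 10, minimum total 15), TMM factors and a robust quasi-likelihood fit, with Benjamini-Hochberg adjustment over the 16196 genes tested. Log2 fold changes are MHE over PBS, and an SE is |log2 fold change| divided by the root of the F statistic. CPM uses the TMM factors, 1.07 and 1.05 for MHE and 1.01 and 0.886 for PBS. With 2 biological replicates a group, p-values set the difference between groups against the spread between these libraries. That spread is estimated for each gene with help from all genes tested. Counts at 0 are read against a floor of 3 counts per library, which covers counting error only. The fit was tested on simulated data.

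The members, the gene lists and the markers were chosen with earlier results of these data known. Values were printed for members past the threshold, for 12 defining members, and for the 2 highest and 2 lowest of each class. Other members, and the count ratios, were chosen after their values were seen. Up to 4 genes of the smallest p were named from each list of other pathway genes, and any further gene of those lists was likewise chosen after its values were seen. The result of 1 gene is not reported here. Symbols matched the RefSeq table of GRCm38.p6 for 54 of 56 members, and coordinates and promoters come from RefSeq on that build. Alternatives were DESeq2 1.42.0, voom in limma 3.58.1, median-of-ratios factors, unscaled library totals, no filter on low counts, a stricter one (50 counts in total, and a CPM of 1 or more in 2 libraries), a block for the replicate number, each library left out, and, added after the data were seen, edgeR's newer quasi-likelihood fit and class I without H2-L, H2-Q9 and H2-T9.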

Additional observations from a re-analysis of the deposited data

How the results depend on the processing

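DESeq2 called 2951 genes in all, against 799, and 7 class II members, limma-voom called 3 class II members, and the replicate block called 2, where the fit used here called 0. The replicate numbers only name libraries: deviations of same-numbered libraries correlated at r = 0.120 across genes, which are not independent replicates, and the replicate block called 764 genes in all, 8 class I members (H2-K2 was lost, adjusted p = 0.0531) and 5 processing genes and regulators. Leaving out a library in turn, the calls ranged from 0 to 2750 over all genes, from 0 to 13 for class I, from 0 to 8 for class II and from 0 to 6 for processing genes and regulators. With a library left out, the spread comes from the other group and the lone library is assumed to vary like it. The medians then ranged from 1.10 to 1.59 for class I, from 1.24 to 2.30 for class II and from 1.09 to 1.51 for processing genes and regulators, and the log2 difference of the class II to class I ratio from 0.42 to 1.78. Without H2-L, H2-Q9 and H2-T9 that difference was 1.05, and over H2-Aa, H2-Ab1, H2-Eb1, H2-K1 and H2-D1 alone it was 1.11. Library totals alone moved the median of all genes to 0.14 from -0.02, and under median-of-ratios factors, library totals, both filters and the newer fit the 28 members named by rule kept their side of the threshold. They also kept their direction there, except that Tapbp, at -0.11, had 0.0608 under library totals. Among members not called, direction also turned when a library was left out: Tapbp ranged from -0.229 to 0.0175, H2-D1 from -0.106 to 0.246, H2-L from -0.0856 to 0.264 and H2-DMb1 from -0.0415 to 0.712. The cause was not tested. Depth limits the 12 untested members and the PBS values of H2-Eb2, H2-Oa and H2-M2, which rest on 5 to 8 counts in PBS replicate 2.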
